A study of Mus musculus with 16 samples.

Results

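The genes described here are 10 genes of protein folding and quality control in the endoplasmic reticulum. They are the chaperone genes Hspa5 and Hsp90b1, the co-chaperone gene Dnajb9, the lectin chaperone genes Calr and Canx, the disulfide isomerase genes Pdia3, Pdia4 and Pdia6, the transcription factor gene Xbp1, and Herpud1. They were chosen by gene symbol with earlier results of these data known, so counts of called genes among them are descriptions and no test of the set. All 10 were found among the 26239 genes of each of the authors' 6 deposited tables. RNA had been sequenced from E14Tg2A, a line of mouse embryonic stem cells labelled WT that was grown in serum-containing medium. The medium also held LIF, a cytokine that keeps embryonic stem cells from differentiating. The soluble nickel salt NiCl2 was added at 0, 100, 150 or 200 µM, and RNA was taken on day 4 or on day 6. Cells were passaged every 2 days with fresh NiCl2 each time, and untreated cells of the same day were the controls. Each of the 8 groups had 2 libraries, 16 in all, and all groups shared the 1 cell line, its genotype and the medium.

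Proteins that are secreted, sit in membranes or work inside secretory organelles fold in the endoplasmic reticulum. Chaperones bind their unfolded stretches, lectin chaperones hold newly made glycoproteins, and disulfide isomerases form and rearrange disulfide bonds. When unfolded proteins build up there, the membrane sensors IRE1, ATF6 and PERK start the unfolded protein response: IRE1 splices Xbp1 mRNA, ATF6 is cut to release a transcription factor, and PERK slows translation while ATF4 is made. Chaperone genes are known targets of ATF6 and XBP1, and Herpud1, whose membrane protein helps to send misfolded proteins to the proteasome, is known as a target of several branches.

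Levels are given in RPKM, the reads of a gene divided by its transcript length and by the depth of the library. The authors' deposited tables hold a single RPKM for each group, so values of single libraries cannot be shown. A gene is called higher or lower where the adjusted p in those tables, which the submitters' processing notes tie to DESeq2, is under 0.05. Each ± after a log2 fold change gives a standard error, computed here from that change and its p-value in the tables. Whether the libraries of a group stem from separate cultures is not said in the labels, and the p-values then measure only the spread between libraries, which may be technical. The 3 doses of a day share that day's control libraries, so their comparisons are not independent of each other.

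Library depths recovered from the steps in low RPKM values lay between 34.1 and 76.7 megareads. The lowest of these depths, for 150 µM on day 6, rests on only 5 values and is uncertain. The stem cell markers Pou5f1, Sox2, Nanog, Zfp42 and Esrrb summed to between 1795 and 1977 RPKM in the nickel groups, against 1694 and 1716 RPKM in control cells. Of these 5 markers 3 were called: Nanog was higher in all 6 comparisons and Pou5f1 in 1, while Esrrb was lower in 1 and stood below its own day's control in every nickel group. The 7 markers of endoderm, a secretory lineage that such cultures can form, summed to between 4.55 and 7.80 RPKM with nickel and to 6.03 and 5.46 RPKM in control cells. Of these 7 markers 2 were called: Gata4, an endoderm transcription factor gene with at most 2.41 RPKM, was higher in 3 comparisons, and Dab2 was lower in 1. The 5 fibroblast markers summed to between 4.71 and 9.27 RPKM with nickel, against 11.3 and 8.0 RPKM in control cells, most of it from Thy1, the 1 marker called, which was lower in 3 comparisons. Col1a1 ranged from 0.445 to 0.70 RPKM and Col1a2 from 0.041 to 0.159 RPKM over the groups, while Col3a1 and Postn were at or near 0 in every group. The part of these shifts in the results below was not tested.

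Nickel split the 10 genes. Hspa5 and Calr rose in all 6 comparisons, Hsp90b1, Pdia3, Pdia4 and Pdia6 rose in some, and Herpud1 fell in all 6. Canx, Dnajb9 and Xbp1 passed the threshold in none. At 100 µM on day 4, 2 of the 10 genes were called higher and 1 lower, where 0.576% and 0.462% of 19283 tested genes were, 1.04% in either direction. At 150 µM on day 4 the counts were 6 higher and 1 lower, beside 3.44% and 3.32% of 19470 genes, 6.75% in all. At 200 µM on day 4 they were 5 and 1, beside 4.14% and 3.77% of 19480 genes, 7.92% in all. On day 6, 100 µM gave 2 higher and 1 lower, beside 1.62% and 1.21% of 20033 genes, 2.83% in all. There, 150 µM gave 4 and 1, beside 2.36% and 1.99% of 19822 genes, 4.34% in all. Finally, 200 µM on day 6 gave 3 and 1, beside 4.99% and 4.48% of 20081 genes, 9.47% in all. The single gene called lower was Herpud1 in each comparison. These shares are of all tested genes, also those at low levels. At 150 µM on day 4 the median standard error was 0.137 over the 12061 tested genes with at least 1 RPKM in either group. Dnajb9 and Herpud1 lay above that median and the others of the 10 below it, with 0.056 for Hspa5. How far such precision shaped the counts was not tested. The median log2 fold change of the 10 genes in the authors' deposited tables was 0.12, 0.25 and 0.28 from 100 to 200 µM on day 4, where the median over all tested genes lay between -0.003 and 0.009. On day 6 the 10 genes had medians of 0.03, 0.16 and 0.26 in the authors' deposited tables, beside -0.003, -0.031 and 0.002 over all tested genes.

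**Figure D1:**
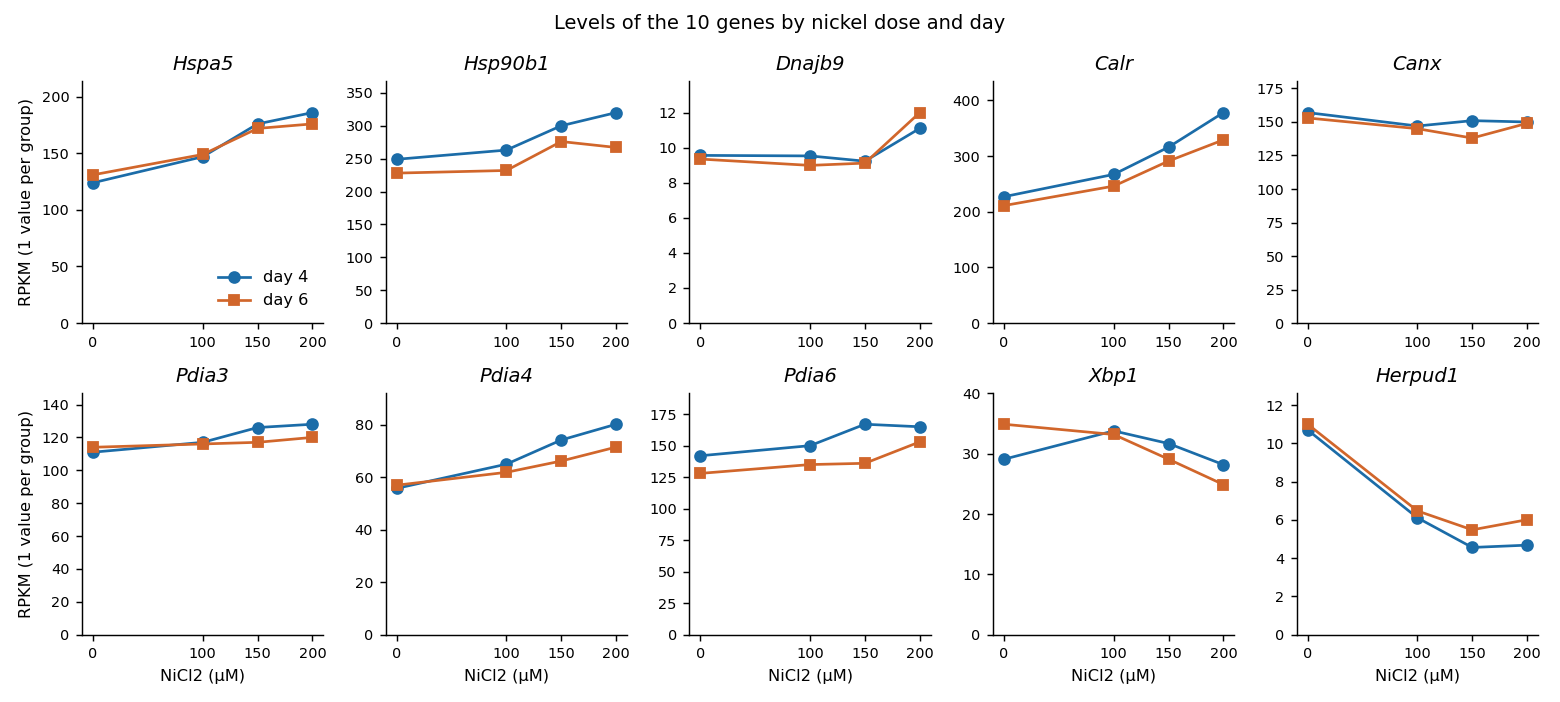
Level of each of the 10 genes in RPKM (vertical axis, starting at 0) against the NiCl2 dose in µM (horizontal axis) on day 4 (circles) and day 6 (squares); each point is the authors' single value for a group of 2 libraries, so no error bar can be drawn. Hspa5, Calr, Pdia3 and Pdia4 climb with every dose step on both days, Canx stays between 138 and 157 RPKM, and every nickel value of Herpud1, 6.47 RPKM at most, lies below both controls, 10.7 and 11 RPKM.

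The promoters of 4 genes are shown. Hspa5 and Calr, which rose in all 6 comparisons, have exact matches to the same stress element, and Herpud1, which fell in all 6, matches other elements. Canx matches the same element as Hspa5 and did not pass the threshold, while Pdia4, called higher in 4 comparisons, has no match. Whether the elements bear on the direction of change was not tested. All 10 genes matched an entry of the RefSeq promoter table (GRCm38.p6), a window of 250 bases before the annotated start and 50 after it. Windows were searched on both strands for exact matches to 5 motifs. Near matches were not sought and are not marked, so a gene without a match may still hold a similar stretch. The endoplasmic reticulum stress element (ERSE), CCAAT, any 9 bases and CCACG, to which the factors NF-Y and ATF6 or XBP1 are known to bind, occurred in 39 of 32851 promoters (0.119%) and in 5 of the 10. ERSE-II, ATTGG, any 1 base and CCACG, occurred in 12 promoters (0.0365%), Herpud1's among them. The C/EBP-ATF element TTGCATCA, known to be bound by ATF4 with a C/EBP partner, occurred in 294 promoters (0.895%), again with Herpud1's among them. Neither the unfolded protein response element TGACGTGG, in 222 promoters (0.676%), nor the cyclic AMP response element TGACGTCA, in 588 (1.79%), occurred in any of the 10 windows. Capitals mark the matches, which are descriptions of the sequence and not evidence of binding.
Hspa5, chr2:34771840-34772139, + strand: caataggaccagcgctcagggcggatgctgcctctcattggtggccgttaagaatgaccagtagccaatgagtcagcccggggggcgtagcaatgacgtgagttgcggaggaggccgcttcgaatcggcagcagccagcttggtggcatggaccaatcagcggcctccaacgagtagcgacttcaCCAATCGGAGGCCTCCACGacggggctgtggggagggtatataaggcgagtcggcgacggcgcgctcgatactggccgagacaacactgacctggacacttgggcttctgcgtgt
Calr, chr8:84846882-84847181, − strand: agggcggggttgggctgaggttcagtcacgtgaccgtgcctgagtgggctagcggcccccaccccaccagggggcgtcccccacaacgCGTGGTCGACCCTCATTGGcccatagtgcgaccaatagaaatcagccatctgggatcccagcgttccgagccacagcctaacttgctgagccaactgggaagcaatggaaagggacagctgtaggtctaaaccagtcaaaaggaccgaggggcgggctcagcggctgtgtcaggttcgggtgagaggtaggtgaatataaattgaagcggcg
Canx, chr11:50325624-50325923, − strand: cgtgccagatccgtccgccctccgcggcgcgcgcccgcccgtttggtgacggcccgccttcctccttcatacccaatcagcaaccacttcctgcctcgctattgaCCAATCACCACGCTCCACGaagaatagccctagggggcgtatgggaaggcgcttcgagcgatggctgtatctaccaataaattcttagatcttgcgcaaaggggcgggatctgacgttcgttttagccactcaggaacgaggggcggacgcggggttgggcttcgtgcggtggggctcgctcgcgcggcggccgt
Herpud1, chr8:94386179-94386478, + strand: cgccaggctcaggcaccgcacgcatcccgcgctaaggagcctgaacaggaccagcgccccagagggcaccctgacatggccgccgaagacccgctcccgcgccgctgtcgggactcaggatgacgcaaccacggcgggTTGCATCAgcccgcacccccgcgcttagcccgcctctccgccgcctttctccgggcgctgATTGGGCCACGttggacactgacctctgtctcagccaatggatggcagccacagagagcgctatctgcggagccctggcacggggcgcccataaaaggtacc

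Hspa5 holds its ERSE from 65 to 47 bases before the start, in the sense direction. Calr has one from 162 to 144 bases before it, in the antisense direction, so the capitals show the reverse complement of the motif. Canx has a sense match from 145 to 127 bases before the start. Hsp90b1 has a pair, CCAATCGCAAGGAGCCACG from 212 to 194 bases before the start and, antisense, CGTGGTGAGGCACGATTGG from 107 to 89. Pdia6 has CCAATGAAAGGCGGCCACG from 98 to 80 bases before its start. Herpud1 has no exact ERSE match: its C/EBP-ATF match lies from 112 to 105 bases before the start and its ERSE-II match from 52 to 42. No match overlapped another. These letters were not found in the windows of Dnajb9, Pdia3, Pdia4 and Xbp1.

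**Figure D2:**
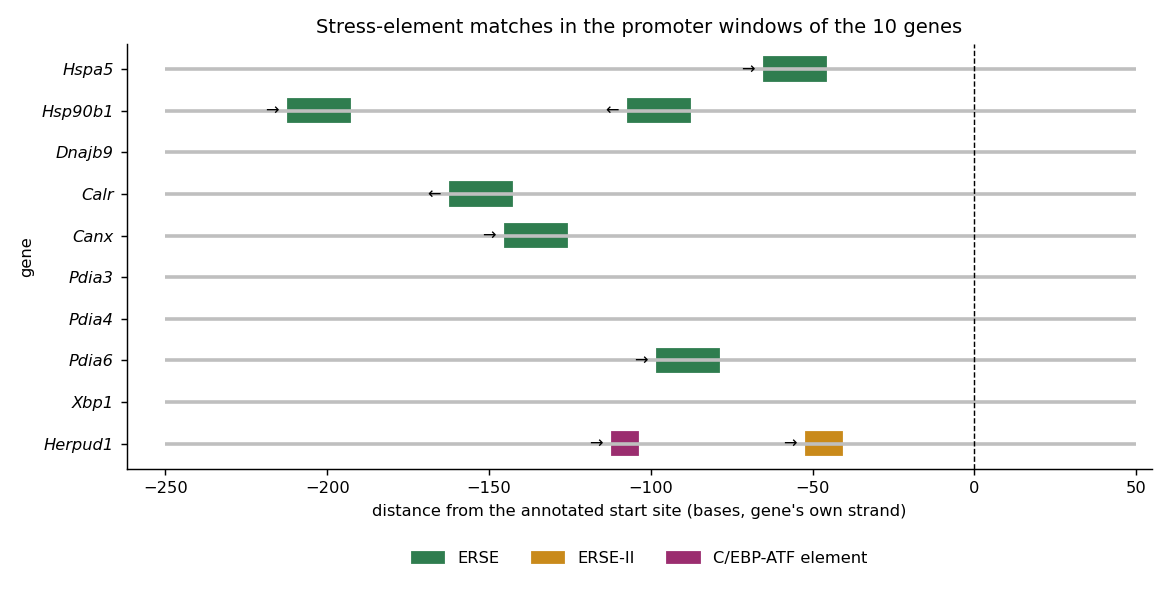
Matches to the searched motifs in the 10 promoter windows; the horizontal axis is the distance in bases from the annotated start site on the gene's own strand, grey lines are the windows, and arrows give the direction of each match. ERSE matches are drawn for Hspa5, Hsp90b1 (2), Calr, Canx and Pdia6, and the ERSE-II and C/EBP-ATF matches for Herpud1.

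Hspa5 (chr2:34772090-34776529, GRCm38, + strand) encodes BiP, the HSP70-family chaperone of the endoplasmic reticulum lumen, which also holds the stress sensors inactive. Its level in the authors' deposited tables was 124, 147, 176 and 186 RPKM at 0, 100, 150 and 200 µM on day 4. On day 6 the same doses gave 131, 149, 172 and 176 RPKM in the authors' deposited tables. All 6 nickel values lay above both controls, and the order followed the dose on both days. In the authors' deposited tables the day 4 log2 fold changes with rising dose were 0.28 ± 0.07 (adjusted p = 0.011), 0.54 ± 0.06 (7.0e-19) and 0.65 ± 0.10 (1.2e-07). The largest of them is a 1.56-fold rise, with an implied 95% interval from 1.36 to 1.80, by the authors' deposited table for 200 µM on day 4. For day 6 the authors' deposited tables gave 0.20 ± 0.06 (adjusted p = 0.013), 0.48 ± 0.08 (2.6e-08) and 0.45 ± 0.12 (0.0040). The 100 µM call on day 4 was lost when the log2 ratio of the RPKM values, 0.25 with a pseudocount of 0.1, replaced the authors' log2 fold change, and that on day 6 with a pseudocount of 1, at 0.18.

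Hsp90b1 (chr10:86690841-86705444, − strand) encodes GRP94, the HSP90-family chaperone of the lumen, with clients such as integrins and Toll-like receptors. Its RPKM in the authors' deposited tables was 249, 263, 300 and 320 from 0 to 200 µM on day 4, and 228, 232, 276 and 267 on day 6. Every nickel value exceeded its own day's control, but the day 6 value at 100 µM was below the day 4 control. By the authors' deposited tables Hsp90b1 rose at 150 µM on both days, with log2 fold changes of 0.31 ± 0.05 (adjusted p = 8.1e-07) on day 4 and 0.36 ± 0.07 (8.3e-05) on day 6. It also rose at 200 µM on day 4, by 0.42 ± 0.10 (adjusted p = 8.4e-04) in the authors' deposited table. The other 3 comparisons did not pass, with adjusted p from 0.10 to 0.88 in the authors' deposited tables. The value nearest to passing was that at 200 µM on day 6, a log2 fold change of 0.25 ± 0.10 in the authors' deposited table.

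Dnajb9 (chr12:44205897-44210068, − strand) encodes ERdj4, a J-domain co-chaperone of BiP that is known to be induced by XBP1. It was the least expressed of the 10 in control cells, at 9.56 RPKM on day 4 and 9.35 RPKM on day 6 in the authors' deposited tables. At 100 and 150 µM it had 9.53 and 9.23 RPKM on day 4, and 8.99 and 9.12 RPKM on day 6, by the authors' deposited tables. At 200 µM it stood at 11.1 RPKM on day 4 and 12 RPKM on day 6 in the authors' deposited tables, its highest levels. The log2 fold changes at 200 µM were 0.27 ± 0.18 on day 4 and 0.38 ± 0.18 on day 6 (adjusted p = 0.40 and 0.16 in the authors' deposited tables). None of the 6 comparisons passed, and the implied 95% interval of the fold at 200 µM on day 6 ran from 1.02 to 1.67 before adjustment.

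Calr (chr8:84842088-84846931, − strand) encodes calreticulin, a soluble lectin chaperone and calcium store of the lumen. At 200 µM it had the largest rise of the 10 on both days. Its RPKM in the authors' deposited tables was 227, 267, 316 and 378 from 0 to 200 µM on day 4, and 211, 246, 291 and 329 on day 6. Each nickel value lay above both controls, and each dose above the one before. The day 4 log2 fold changes in the authors' deposited tables were 0.27 ± 0.07 (adjusted p = 0.018), 0.52 ± 0.06 (6.4e-16) and 0.80 ± 0.10 (6.5e-13). On day 6 the authors' deposited tables gave 0.23 ± 0.05 (adjusted p = 0.0025), 0.55 ± 0.08 (7.0e-11) and 0.66 ± 0.10 (3.5e-08). At 200 µM this is a 1.74-fold rise on day 4 (implied 95% interval 1.52 to 1.99) and a 1.58-fold rise on day 6 (1.37 to 1.82) by the authors' deposited tables. The day 4 call at 100 µM was lost with the log2 ratio of the RPKM values, 0.23. A pseudogene named Calr-ps is annotated, so a share of its reads could be assigned uncertainly.

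Canx (chr11:50293957-50325673, − strand) encodes calnexin, the membrane-bound relative of calreticulin that binds the same class of glycoproteins. Its RPKM in the authors' deposited tables was 157, 147, 151 and 150 from 0 to 200 µM on day 4, and 153, 145, 138 and 149 on day 6. The nickel values were all below both controls, at 0.902 to 0.974 of the control of their own day, and followed no dose order. Its log2 fold changes lay between -0.07 and -0.01 (adjusted p from 0.63 to 0.98 in the authors' deposited tables). The implied 95% intervals in the 6 comparisons ran from a fold of 0.849 at the lowest to 1.14 at the highest, so a rise like that of Calr at 150 µM or above lay outside them. The level of Calr relative to Canx, both per length, was 1.45, 1.82, 2.09 and 2.52 from 0 to 200 µM on day 4 and 1.38, 1.70, 2.11 and 2.21 on day 6. The 2 genes of like function thus moved apart with dose in these group values, a difference for which no test was made. Canx and Calr both carry an ERSE in the windows shown above.

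**Figure D3:**
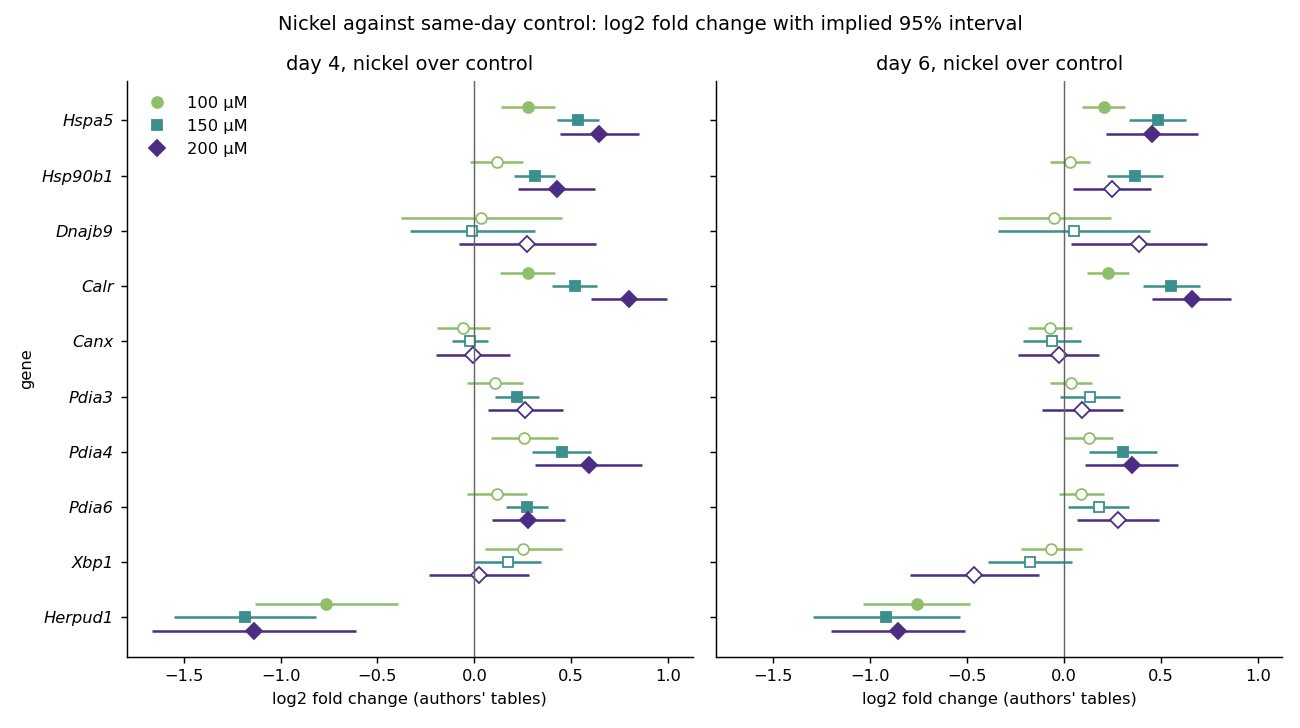
Log2 fold change of each gene, nickel over the control of the same day, from the authors' deposited tables (horizontal axis), with the implied 95% interval as a bar, for 100, 150 and 200 µM (circles, squares, diamonds) on day 4 (left) and day 6 (right). Filled symbols have an adjusted p under 0.05; Herpud1 lies wholly below 0 and Hspa5 and Calr wholly above 0 in all 6 comparisons, while the intervals of Canx all span 0.

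Pdia3 (chr2:121413902-121438686, + strand) encodes ERp57, the disulfide isomerase that works with calreticulin and calnexin on glycoproteins. In the authors' deposited tables it had 111, 117, 126 and 128 RPKM from 0 to 200 µM on day 4, and 114, 116, 117 and 120 RPKM on day 6. All nickel values lay above both controls, but the steps were small. Pdia3 was called higher in 1 comparison, that of 150 µM on day 4, with a log2 fold change of 0.22 ± 0.06 (adjusted p = 0.0031) in the authors' deposited table. For 200 µM on the same day the authors' deposited table gave a larger log2 fold change with a larger error, 0.26 ± 0.10 (adjusted p = 0.067). On day 6 its log2 fold changes were 0.03 to 0.13, with adjusted p of 0.41 or more in the authors' deposited tables.

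Pdia4 (chr6:47796141-47813512, − strand; the microRNA gene Mir704 lies within it on the same strand) encodes ERp72, another disulfide isomerase of the lumen. Its RPKM in the authors' deposited tables was 55.7, 64.9, 74.1 and 80.1 from 0 to 200 µM on day 4, and 56.9, 61.8, 66.1 and 71.4 on day 6. The order followed the dose on both days, and every nickel value exceeded both controls. By the authors' deposited tables it rose at 150 µM on day 4, by 0.45 ± 0.08 on the log2 scale (adjusted p = 5.2e-07), and at 200 µM on day 4, by 0.59 ± 0.14 (adjusted p = 8.9e-04). On day 6 it rose by 0.30 ± 0.09 at 150 µM (adjusted p = 0.018) and by 0.35 ± 0.12 at 200 µM (adjusted p = 0.042) in the authors' deposited tables. Both day 6 calls were lost with the log2 ratio of RPKM values, 0.22 at 150 µM and 0.33 at 200 µM. At 100 µM the log2 fold changes of 0.26 ± 0.09 on day 4 and 0.13 ± 0.06 on day 6 did not pass (adjusted p = 0.16 and 0.35 in the authors' deposited tables).

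Pdia6 (chr12:17266589-17284785, + strand) encodes P5, a disulfide isomerase known to bind BiP. Atp6v1c2 overlaps it on the opposite strand, and whether the authors counted by strand is not given in the sources used here. Its RPKM in the authors' deposited tables was 142, 150, 167 and 165 from 0 to 200 µM on day 4, and 128, 135, 136 and 153 on day 6. Each nickel value was above the control of its own day, though the day 6 values at 100 and 150 µM were below the day 4 control. The authors' deposited tables gave a rise at 150 µM on day 4 of 0.27 ± 0.06 on the log2 scale (adjusted p = 4.7e-05). At 200 µM on day 4 the rise was 0.28 ± 0.10 (adjusted p = 0.044 in the authors' deposited table), a call that was lost in 4 of the 5 alternatives. These were adjustment over every gene with a p-value, centring on the median fold change (log2 value then 0.27), and log2 ratios of RPKM with a pseudocount of 0.1 or 1 (0.22 with each). At 200 µM on day 6 the log2 fold change was as large, 0.28 ± 0.11, and did not pass (adjusted p = 0.073 in the authors' deposited table).

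Xbp1 (chr11:5520641-5525993, + strand) encodes the transcription factor whose mRNA is spliced by IRE1. The tables give 1 value per gene, so spliced and unspliced forms are not separated. On day 4 its RPKM in the authors' deposited tables was 29.1, 33.8, 31.7 and 28.2 from 0 to 200 µM, highest at 100 µM. Day 6 gave 34.9, 33.2, 29.1 and 24.9 RPKM in the authors' deposited tables, lower at each dose step. The level at 200 µM was 0.834 of that at 100 µM on day 4 and 0.75 of it on day 6. The day 4 log2 fold changes in the authors' deposited tables were 0.25 ± 0.10, 0.17 ± 0.09 and 0.02 ± 0.13 with rising dose, with adjusted p of 0.32, 0.26 and 0.95. For day 6 they were -0.07 ± 0.08, -0.18 ± 0.11 and -0.46 ± 0.17, with adjusted p of 0.80, 0.45 and 0.054 in the authors' deposited tables. The last of these passed the threshold when p-values were adjusted only over genes with an RPKM of at least 1. The day 6 control exceeded the day 4 control by 1.20-fold in RPKM, the widest such gap among the 10 genes.

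Herpud1 (chr8:94386429-94395371, + strand) encodes a ubiquitin-like membrane protein of the degradation machinery of the endoplasmic reticulum. It was the only one of the 10 that fell, and in each of the 6 comparisons its log2 fold change was larger in size than that of any other. Its RPKM in the authors' deposited tables was 10.7, 6.11, 4.56 and 4.68 from 0 to 200 µM on day 4, and 11, 6.47, 5.48 and 6.01 on day 6. All nickel values lay far below both controls, and the lowest was at 150 µM on both days. In the authors' deposited tables the day 4 log2 fold changes were -0.76 ± 0.19 (adjusted p = 0.0070), -1.18 ± 0.19 (3.7e-08) and -1.14 ± 0.27 (8.2e-04). The authors' deposited tables for day 6 gave -0.76 ± 0.14 (adjusted p = 1.1e-05), -0.92 ± 0.19 (1.8e-04) and -0.86 ± 0.18 (5.7e-05). At 150 µM on day 4 the level was thus 0.441 of control, with an implied 95% interval from 0.341 to 0.569, by the authors' deposited table. The level of Hspa5 relative to Herpud1, both per length, was 11.6, 24.1, 38.6 and 39.7 from 0 to 200 µM on day 4, and 11.9, 23.0, 31.4 and 29.3 on day 6. In RNA from whole cultures, fewer cells with a transcript and less of it per cell cannot be told apart. The ERSE-II of Herpud1 shown above is made of CCACG, as in the ERSE, and of ATTGG, the reverse complement of its CCAAT.

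In control cells the order of levels per length was Hsp90b1, Calr, Canx, Pdia6, Hspa5, Pdia3, Pdia4, Xbp1, Herpud1 and Dnajb9 on day 4. Day 6 controls differed from that order only in Hspa5 and Pdia6, which stood at 131 and 128 RPKM. Hsp90b1 and Calr were the 209th and 237th most expressed of all genes in the day 4 control, and Herpud1 and Dnajb9 the 5613th and 6037th. With nickel, Calr stood first in all 6 groups, and Hspa5 stood above Canx in 5, the exception being 100 µM on day 4, where both had 147 RPKM. Because no spread within a group is given, neighbours in these orders cannot be tested. The 8 folding genes, all but Xbp1 and Herpud1, summed to 1075, 1165, 1319 and 1418 RPKM from 0 to 200 µM on day 4. They made up 0.261%, 0.282%, 0.324% and 0.357% of all RPKM there. On day 6 the sums were 1031, 1094, 1205 and 1277 RPKM, or 0.248%, 0.265%, 0.303% and 0.316% of the total. The sum climbed at every dose on both days. At 200 µM the 3 largest differences from control in RPKM were those of Calr, Hsp90b1 and Hspa5 on both days.

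The change from control was next compared between days, as the log2 fold change of day 6 minus that of day 4. A two-sided z test was used, adjusted over all genes by Benjamini-Hochberg. None of the 10 genes passed at any dose (smallest adjusted p 0.9998), where 0.0374%, 0.0745% and 0.0476% of genes did at 100, 150 and 200 µM. At an unadjusted p under 0.05 the test called 1 of the 10 genes at each dose, Xbp1. Its difference was -0.32 ± 0.13 at 100 µM (95% interval -0.57 to -0.07), -0.35 ± 0.14 at 150 µM (-0.62 to -0.07) and -0.49 ± 0.21 at 200 µM (-0.91 to -0.07). The 3 doses share their control libraries, in which Xbp1 itself was higher on day 6, so the differences are not separate observations. For Herpud1 the difference was 0.28 ± 0.32 at 200 µM, with a 95% interval from -0.35 to 0.91, and for Hspa5 it was -0.19 ± 0.16 with an interval from -0.51 to 0.12. Over all genes the test made fewer calls than chance would at an unadjusted 0.05, with 560, 591 and 369 genes against 937, 939 and 944. Whether it was conservative for genes at the levels of these 10, or for spread between cultures, was not tested.

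Other genes of the same machinery were read from lists of function. Of 39 further folding helpers of the endoplasmic reticulum, 9 were higher at 150 µM and 9 at 200 µM on day 4, and 9 at 200 µM on day 6. Of all tested genes, 3.44%, 4.14% and 4.99% were higher in these comparisons. For 150 µM on day 6 the count was 2, beside 2.36%. At 100 µM none was higher by the authors' DESeq2 call, beside 0.576% on day 4 and 1.62% on day 6. There, 2 genes on day 4 and 8 on day 6 had an unadjusted p under 0.05 in either direction. Hyou1, Dnajb11, Dnajc3 and Creld2 were among the helpers called in no comparison. The median log2 fold change of these helpers was 0.01, 0.16 and 0.27 from 100 to 200 µM on day 4 and 0.08, 0.18 and 0.29 on day 6 in the authors' deposited tables. Uggt1, the glucosyltransferase that returns unfolded glycoproteins to calnexin and calreticulin, was called higher in 4 comparisons. At 200 µM on day 6 it had 18.4 RPKM with nickel and 12.3 RPKM in control cells (log2 fold change 0.60 ± 0.12, adjusted p = 2.99e-05 in the authors' deposited table). Ero1a, the oxidase that recharges disulfide isomerases, was called in 3, with 23.1 RPKM at 200 µM on day 6 and 15.0 RPKM in control cells (log2 fold change 0.64 ± 0.13, adjusted p = 7.37e-05 in the authors' deposited table). Pdia5 and Sdf2l1, genes of a disulfide isomerase and of a protein that associates with BiP complexes, were likewise called higher in 3 comparisons. One helper fell on day 6 at all 3 doses, Serpinh1, the collagen chaperone, at 16.2 RPKM with 200 µM and 25.5 RPKM in control cells (log2 fold change -0.66 ± 0.20, adjusted p = 0.0143 in the authors' deposited table).

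Genes of the degradation machinery to which Herpud1 belongs were called in both directions. Of 27 such genes outside Herpud1, the authors' DESeq2 results called 0 at 100 µM on day 4, beside 1.04% of all tested genes. At an unadjusted p under 0.05 in either direction there were 0, 4 and 7 of the 27 from 100 to 200 µM on day 4, and 4, 8 and 8 on day 6. At 150 µM 1 was called on day 4, beside 6.75% of all tested genes, and 4 on day 6, 1 higher and 3 lower, beside 4.34%. At 200 µM on day 4 there were 3, all higher, beside 7.92%. On day 6, 1 was called at 100 µM, beside 2.83%, and 1 at 200 µM, beside 9.47%. At such shares few of 27 genes would be called, so the low counts do not set this list apart. The list's median log2 fold change lay between -0.03 and 0.06 in the authors' deposited tables. Os9, a lectin that delivers misfolded glycoproteins for degradation, was called higher in 4 comparisons, with 8.66 RPKM at 200 µM on day 6 and 4.84 RPKM in control cells (log2 fold change 0.87 ± 0.15, adjusted p = 6.64e-07 in the authors' deposited table). Derl3 and Man1b1 were called higher at 200 µM on day 4 only. Faf2 was called lower at 150 µM on both days, and Ube2j1 and Ube2j2 at 150 µM on day 6. Herpud2, the paralogue of Herpud1, was called in none. The 15 sensors and transducers of the unfolded protein response include Ern1, Atf6 and Eif2ak3, which encode IRE1, ATF6 and PERK. The authors' DESeq2 results called 0 of the 15 in every comparison, beside 1.04% to 9.47% of all tested genes. At such shares few of 15 genes would be called, so the 0 does not set these sensors apart. At an unadjusted p under 0.05 there were 0, 1 and 1 of them on day 4 and 1, 2 and 1 on day 6 with rising dose.

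Genes of the PERK and ATF4 branch, like Herpud1, were called lower more often than higher. Of 18, the authors' deposited tables called 5, 8 and 8 lower from 100 to 200 µM on day 4. On day 6 they called 6, 7 and 4 lower. Of all tested genes, 0.462%, 3.32% and 3.77% were called lower on day 4, and 1.21%, 1.99% and 4.48% on day 6. The list's median log2 fold change lay between -0.50 and -0.29. Asns, Sesn2, Ppp1r15a, Stc2, Slc7a11, Atf3 and Cebpb were called in no comparison. Atf4, the branch's transcription factor, was lower in all 6 comparisons, with 181, 125, 106 and 112 RPKM from 0 to 200 µM on day 4. Chac1, which encodes a glutathione-degrading enzyme, and Slc3a2, an amino acid transporter subunit, were also lower in all 6, and Trib3, a pseudokinase gene, in 5. Chac1 had 3.40 RPKM at 150 µM on day 4 and 17.6 RPKM in control cells (log2 fold change -2.33 ± 0.20, adjusted p = 7.25e-27 in the authors' deposited table). Ddit4, an inhibitor of mTORC1, was the single gene of the list called higher, at 200 µM on both days. Of 32 genes of translocation and N-glycosylation, at most 1 was called in each direction in a comparison: Srp68 higher, and Srpr and Sec61b lower, in 1 comparison each. Between 0.462% and 4.99% of all tested genes were called in 1 direction. At such shares few of 32 genes would be called, so the low counts do not set this list apart either.

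Of 24 cytosolic chaperone genes, 2, 4 and 2 were called higher from 100 to 200 µM on day 4. All tested genes were called higher there at 0.576%, 3.44% and 4.14%. On day 6 the counts were 1, 3 and 2, beside 1.62%, 2.36% and 4.99%. In each comparison 0 or 1 was lower, beside 0.462% to 4.48% of all tested genes. The list's median log2 fold change lay between -0.15 and 0.08. Hspa1b, an inducible HSP70 gene, was higher in all 6, at 1.54 RPKM with 200 µM and 0.317 RPKM in control cells on day 4 (log2 fold change 2.35 ± 0.48, adjusted p = 5.84e-05 in the authors' deposited table). It has a near-identical copy, Hspa1a, called higher in 3, so the split of reads between them is uncertain. Hspa8, the constitutive HSP70 gene, was higher in 3 comparisons and Hsp90aa1 in 2, and Cct2, a chaperonin subunit, was lower in 3.

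**Figure D4:**
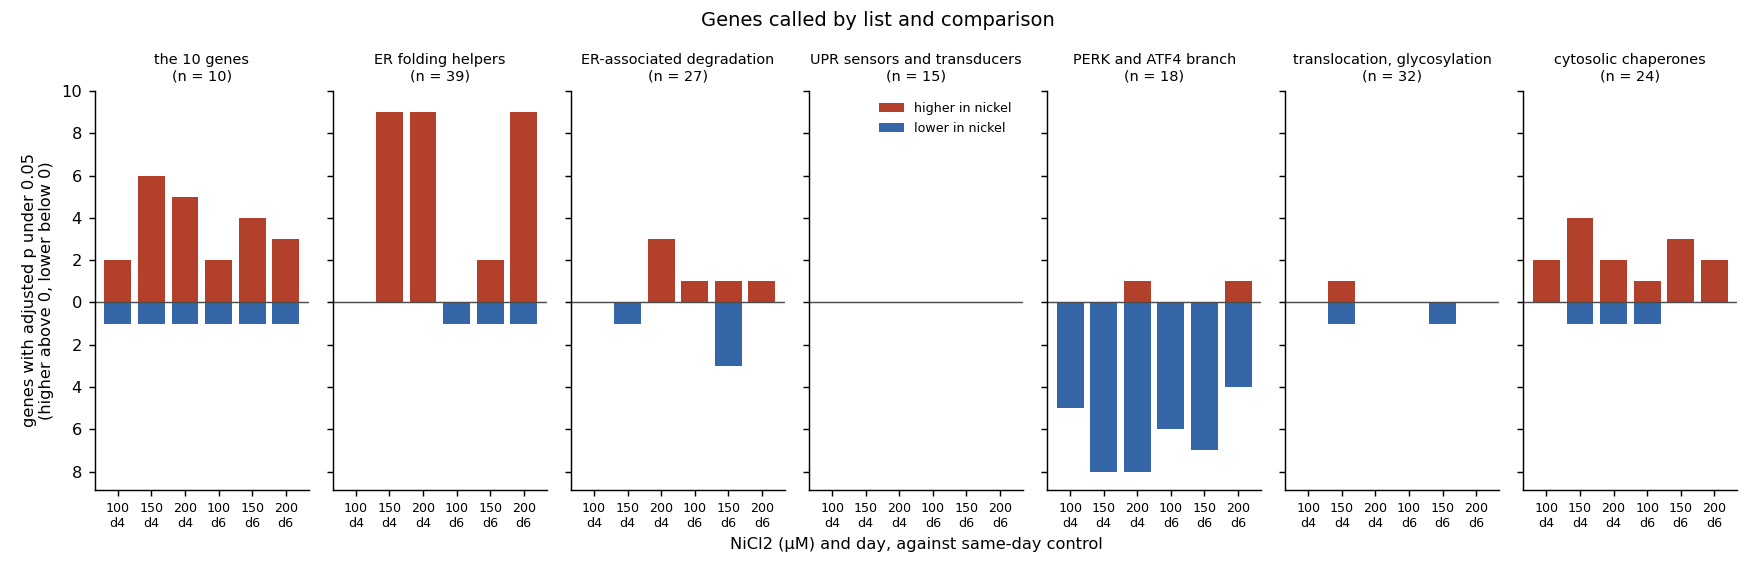
Number of genes called in the authors' deposited tables at an adjusted p under 0.05 (vertical axis; higher in nickel above 0, lower below 0) in each of the 6 comparisons (horizontal axis; dose in µM and day, d4 or d6) for the 10 genes and the 6 lists. The 10 genes and the folding helpers stand mostly above 0 and the PERK and ATF4 branch mostly below, the sensors show no bar, and 0.462% to 4.99% of all tested genes were called in 1 direction.

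The genes whose levels followed Hspa5 and Herpud1 most closely were sought among 5833 genes with a mean of at least 10 RPKM, by Pearson's r of log2 RPKM over the 8 groups. These values describe the groups, which share libraries, dose series and scaling, and carry no test. Elovl6, a fatty acid elongase gene, was closest to Hspa5 (r = 0.989), with 35.5, 43.0, 50.6 and 52.9 RPKM from 0 to 200 µM on day 4. The next were the kinase gene Hunk (0.984), Tdgf1, which encodes a Nodal co-receptor (0.982), the non-coding RNA gene Eprn (0.979) and Glb1, which encodes a lysosomal galactosidase (0.977). The 5 were called higher in 4 to 6 comparisons each. Among the other 9 genes, Pdia4 (0.948) and Calr (0.944) were nearest to Hspa5, followed by Pdia3 (0.877), Hsp90b1 (0.808), Pdia6 (0.667) and Dnajb9 (0.469). Canx (-0.474), Xbp1 (-0.513) and Herpud1 (-0.926) had negative values. Atf4 was the closest gene to Herpud1 (r = 0.99), although its level per length in control cells was far higher, 181 against 10.7 RPKM on day 4. Smchd1 (0.987) and Larp4 (0.982) followed, and Snx8 had an r of 0.978. Smchd1 and Larp4 were called in no comparison, so a close r also arose for genes with small changes.

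**Figure D5:**
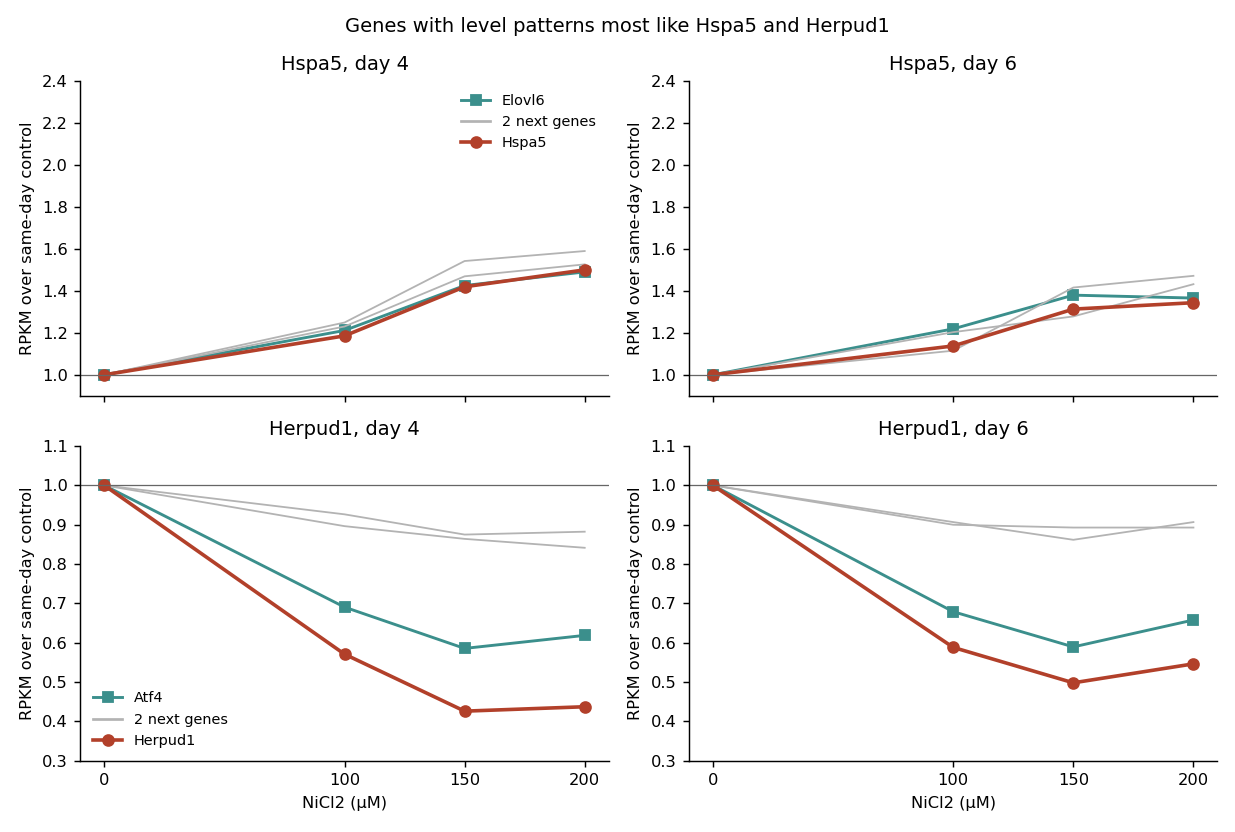
RPKM relative to the control of the same day (vertical axis; it does not start at 0) against the NiCl2 dose in µM (horizontal axis) on day 4 (left) and day 6 (right), for Hspa5 with Elovl6 and its 2 next closest genes (top) and for Herpud1 with Atf4 and its 2 next closest genes (bottom). Hspa5 and Elovl6 run together, while Atf4 has the shape of Herpud1 at a smaller size, with its lowest RPKM, 106 on day 4 and 112 on day 6, at 150 µM on both days.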

How the data were processed

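Per the labels, total RNA was made into libraries with a stranded mRNA kit, and the submitters' processing notes name STAR, DESeq2 and the build GRCm38, with no version or setting given. Each dose and day has 1 of the 6 deposited tables. Per the file headers, the authors gave an RPKM for the nickel and for the control group of each gene. They also gave, per the file headers, the log2 fold change with its p-value, the p-value after adjustment, and the gene's position. No table held values per library, so no count model was fitted and the authors' adjusted p was used at 0.05.

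From these files the following were computed. The standard error of a log2 fold change was implied by the authors' p-value through the normal distribution. A gene was taken as untested where its fold change was 0 on the log2 scale and its p was 1. The day difference was a two-sided z test over all genes tested on both days. It was run on fold changes simulated from a normal distribution with these same standard errors, so that run could not check the errors themselves. Depths of 34.1 to 76.7 megareads came from the RPKM steps that 2517 single-exon genes show, within 0.3%. The lower depth rests on 2 values for 100 µM on day 4 and on 5 for 150 µM on day 6. Promoters were the RefSeq GRCm38.p6 windows, and coordinates count from 1. Alternatives changed the threshold, the genes over which p-values were adjusted, the centring of fold changes, or used log2 ratios of RPKM with a pseudocount. Python 3.11.15, pandas 2.3.3, NumPy 2.4.6 and SciPy 1.17.1 were used.

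The 10 genes and 6 lists were chosen with earlier results of these data known. All 10 genes were named in all comparisons, with up to 4 genes per list and direction called most often and the 5 genes closest in pattern to Hspa5 and to Herpud1, of which 1 is not reported here.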

Additional observations from a re-analysis of the deposited data

How the results depend on the processing

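Of 300 alternative values for the 60 fold changes of the 10 genes, 280 kept their direction and side of the threshold, 13 lost the call, 1 gained it and 6 changed sign. The sign changes were all of values near 0, in the log2 ratio of RPKM with a pseudocount of 0.1 or 1: Dnajb9 at 100 µM on day 4 (-0.0045 and -0.0041) and at 150 µM on day 6 (-0.036 and -0.032), and Xbp1 at 200 µM on day 4 (-0.045 and -0.044). The genes called numbered 3, 7 and 6 from 100 to 200 µM on day 4 and 3, 5 and 4 on day 6. With a fold of at least 1.5 also required, 1 gene remained at 100 and 1 at 150 µM on each day, with 4 at 200 µM on day 4 and 2 on day 6. At an adjusted p under 0.01, 1 gene was called at 100 µM on day 4. Day differences stayed at 0 genes under every alternative run. No paired analysis was possible because the tables hold 1 value per group and none per library. For the same reason no library could be left out. Herpud1 and Dnajb9, the genes with the lowest levels, had the largest standard errors of the 10 in every comparison, so differences between doses are least certain there.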
